A study of Mus musculus with 82 samples.

Results

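Primed CD8 and CD4 T cells were compared in mice that had been immunized with ovalbumin a month earlier and had then been given saline. They are 15 of the 82 libraries of the series, 7 of CD8 cells and 8 of CD4 cells. A library was taken as CD8 where its Cd8a counts exceeded its Cd4 counts and as CD4 otherwise, so the members were chosen by these 2 measured counts and not by the label. OT-I is a line of CD8 T cells whose transgenic receptor recognizes an ovalbumin peptide on MHC class I, and OT-II a line of CD4 T cells whose transgenic receptor recognizes ovalbumin on MHC class II. Both were transferred into wild-type recipients, which were immunized the next day under the skin with ovalbumin in complete Freund's adjuvant. Each library is 1 mouse: spleen and lymph nodes were pooled, cells were collected 4 days after saline, OT-I and OT-II cells were sorted separately into buffer and frozen, and cDNA was made from polyadenylated RNA with the SmartSeq chemistry. Every mouse of both lineages therefore shared the transfer, the immunization, the interval and the saline. The unprimed cells used for contrast came from recipients that had the same transfer and saline but no immunization, with 5 OT-I and 5 OT-II libraries, each of 3 pooled mice sorted into Trizol, in 2 labelled batches. Other primed mice of the series were given plain ovalbumin (OVA) or pGal-OVA, a glycosylated form of it, in place of saline. The strain field reads C57BL/6 in the unprimed libraries and carries another number after the slash in each primed library.

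CD8 T cells that have met antigen become killers: they store granzymes and perforin, secrete interferon gamma and chemokines, and carry receptors shared with NK cells. CD4 T cells instead help other cells, through CD40 ligand, other members of the tumour necrosis factor (TNF) family and cytokines such as interleukin 21, and part of them become follicular helper or regulatory cells. Runx3 and ThPOK, the product of Zbtb7b, are the transcription factors known for holding the CD8 and the CD4 fate.

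Total estimated counts were 24.7 to 62.5 M (mega) in the 15 libraries, with 14108 to 17103 genes detected. In 12 of them the transcripts and the label named the same lineage (OT-I replicates 1, 2, 4, 5, 7 and 8, and OT-II replicates 1, 2, 4, 5, 6 and 7). The libraries labelled OT-I saline 3 and 6 held CD4 transcripts and the library labelled OT-II saline 3 held CD8 transcripts. Tests were run on the 12 libraries, 6 against 6, where the groups are those of the labels, and the other 3 are given as values only. OT-II saline 1 and 7 stood apart from the other CD4 libraries, with a median rank correlation across genes of 0.847 and 0.818 to their own lineage, against 0.892 to 0.95 in the other 13 libraries. Their mitochondrial genes summed to 2.65% and 2.05% of 1 M after TMM scaling, against 0.495% to 1.39% elsewhere. These are not exact shares of the counts. Numbers of calls are also given without OT-II saline 1 and 7. Values below are counts per M (CPM) after TMM scaling, given as the lowest, median and highest library of the 7 CD8 and the 8 CD4 libraries. Fold changes are log2, OT-I minus OT-II, with an approximate SE, and a gene was called at an adjusted p under 0.05 (edgeR quasi-likelihood test, Benjamini-Hochberg over all tested genes). In bulk libraries, fewer cells of a type and less RNA per cell cannot be told apart.

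Cd8a had 837, 1131 and 1179 CPM in CD8 libraries, against 0.152, 1.95 and 8.10 CPM in CD4 libraries. Cd4 had 0.566, 1.30 and 4.34 CPM in CD8 libraries, against 334, 825 and 1071 CPM in CD4 libraries. These 2 genes chose the members and were not tested. No library lay near the dividing line: the smallest ratio of Cd8a to Cd4 counts among CD8 libraries was 225 and the largest among CD4 libraries was 0.0243.

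The lineages differed in 1011 of 13316 genes (7.59%), of which 532 (4.00%) were higher in CD8 cells and 479 (3.60%) lower. The median log2 fold change of all tested genes was -0.06, and 756 of the called genes (5.68% of those tested) differed at least 2-fold. Without OT-II saline 1 and 7, 1384 of 13814 genes were called (10.0%). With all 15 libraries placed by transcripts, 1422 of 13487 genes were called (10.5%), among them 991 of the 1011. Fitting the 15 libraries as labelled called 0 of 13489 genes by the same edgeR test, with 1010 at an unadjusted p under 0.05. For 648 of the 13316 genes (4.87%) the 7 CD8 libraries and the 8 CD4 libraries did not overlap, 376 with CD8 above (2.82%) and 272 with CD8 below (2.04%). The counts of the gene lists below, which share some members, are to be read against these shares.

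All 9 CD8 lineage genes tested were called higher in CD8 cells, with no overlap between the lineages in any of them. Their median log2 fold change was 3.89. Cd8b1, the partner chain of CD8 alpha, had 1725, 2378 and 2636 CPM in CD8 libraries, against 6.81, 17.4 and 29.5 CPM in CD4 libraries (log2 6.99, SE 0.33, adjusted p = 1.24e-08). Crtam, an adhesion receptor of activated killer cells, had 71.5, 113 and 143 CPM in CD8 libraries, against 0.0912, 1.13 and 10.7 CPM in CD4 libraries (log2 5.16, SE 0.77). Xcl1, a chemokine that draws cross-presenting dendritic cells, had 26.6, 33.3 and 59.0 CPM in CD8 libraries, against 0.315, 1.18 and 10.0 CPM in CD4 libraries (log2 3.89). The smallest difference of the list was in Runx3, with 137, 182 and 217 CPM in CD8 libraries, against 95.6, 115 and 137 CPM in CD4 libraries (log2 0.67, SE 0.17, adjusted p = 0.0191). Runx3 transcripts were thus present in every CD4 library, and its call was lost when OT-II saline 5 was left out (adjusted p = 0.0514).

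Of 9 CD4 lineage genes tested, 6 were called lower in CD8 cells and none higher, with a median log2 fold change of -2.73. Without OT-II saline 1 and 7, 7 were called lower. Zbtb7b had 4.01, 7.19 and 12.7 CPM in CD8 libraries, against 69.6, 86.6 and 105 CPM in CD4 libraries (log2 -3.54, SE 0.28, adjusted p = 1.20e-06). Cd40lg, the ligand by which helper cells license B cells and dendritic cells, had 15.5, 19.6 and 31.9 CPM in CD8 libraries, against 112, 219 and 283 CPM in CD4 libraries (log2 -3.12, SE 0.25, adjusted p = 1.52e-06). Neither gene overlapped between lineages, and the CD4 libraries held Cd40lg at several times the level of any CD8 library. Izumo1r, which encodes folate receptor 4 and is high in regulatory and anergic CD4 cells, had 18.5, 24.1 and 40.5 CPM in CD8 libraries, against 238, 390 and 492 CPM in CD4 libraries (log2 -3.77, SE 0.23, adjusted p = 1.07e-07).

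**Figure D1:**
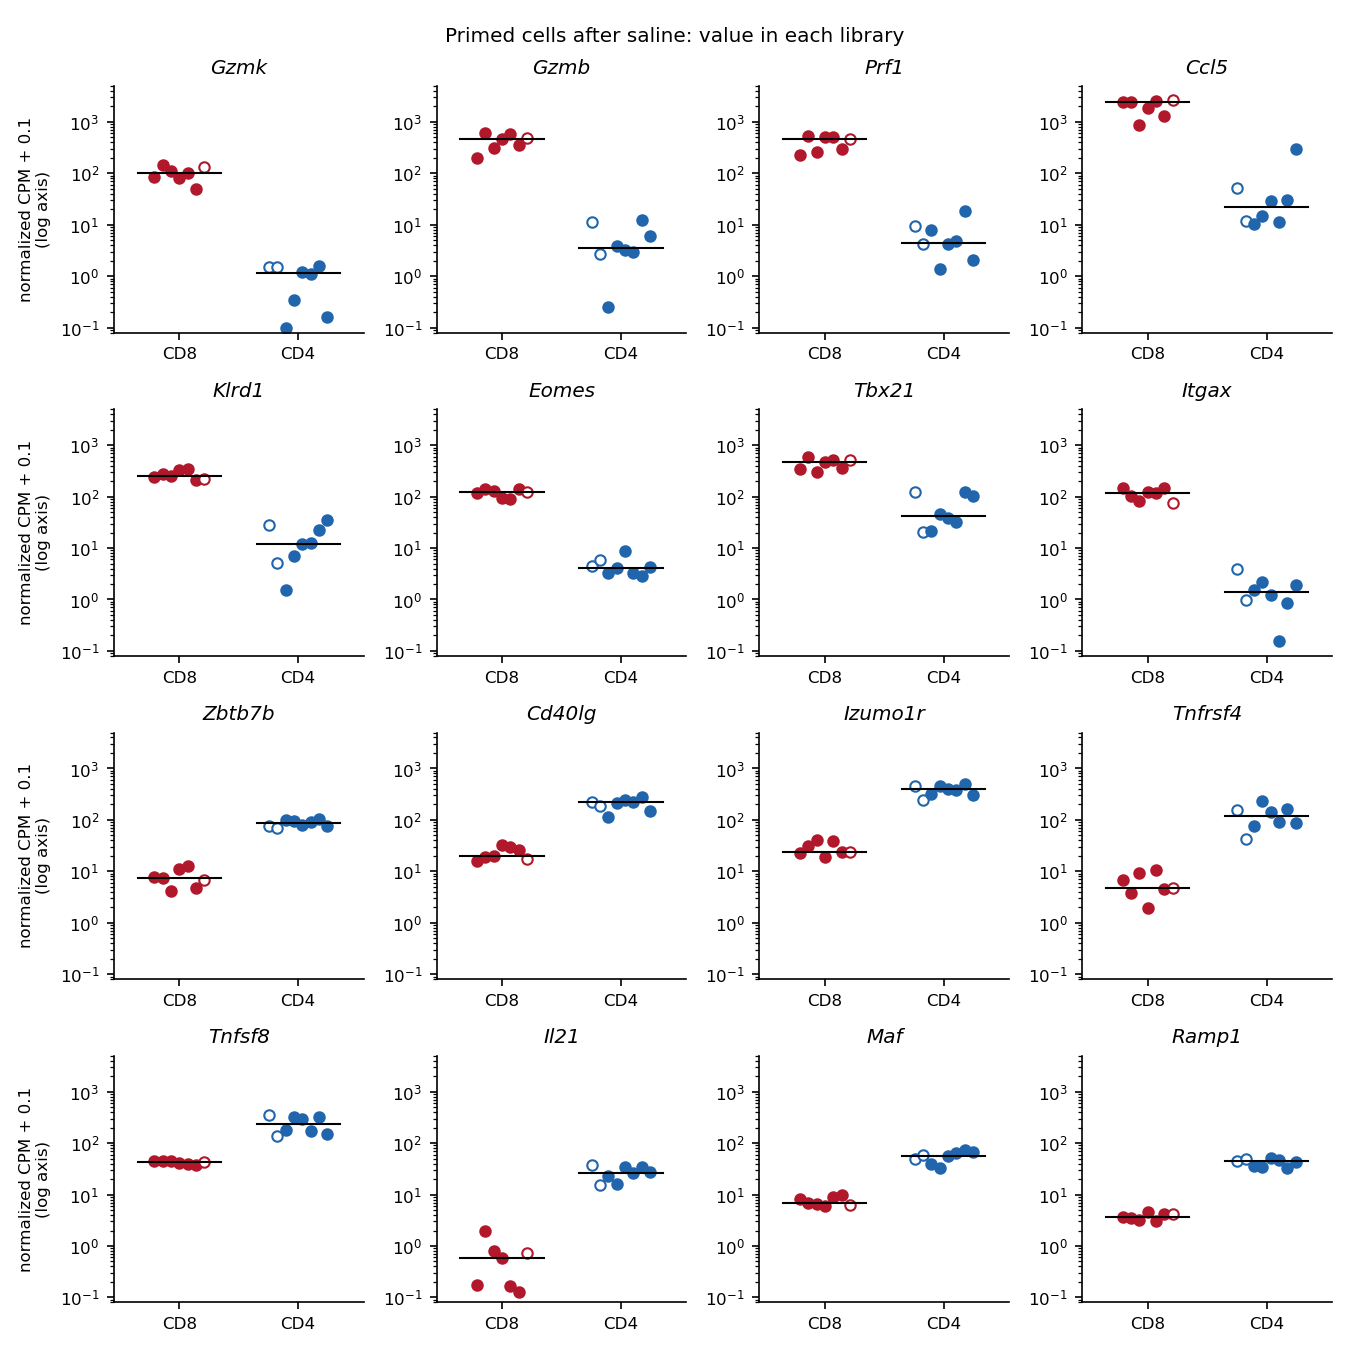
Normalized CPM plus 0.1 on a log axis in each of the 7 CD8 (left) and 8 CD4 (right) primed saline libraries for 16 genes; filled points are libraries whose label and transcripts match, open points the 3 whose label names the other lineage, and bars are medians. The open points lie among the libraries of the lineage their transcripts name, and no gene shown overlaps between lineages.

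Cytotoxic genes were among the most widely separated. Of 20 tested, 15 were called higher in CD8 cells and none lower, with a median log2 fold change of 3.60, and in 14 of them the lineages did not overlap. Gzmk, encoding granzyme K, a serine protease of memory CD8 cells, had 49.5, 104 and 145 CPM in CD8 libraries, against 0, 1.04 and 1.52 CPM in CD4 libraries (log2 7.19, SE 0.74, adjusted p = 1.31e-05). Gzmb, encoding granzyme B, which triggers apoptosis in target cells, had 195, 470 and 608 CPM in CD8 libraries, against 0.154, 3.47 and 12.5 CPM in CD4 libraries (log2 6.45, SE 0.69, adjusted p = 1.96e-05). Prf1, encoding the pore-forming protein perforin that lets granzymes in, had 229, 468 and 531 CPM in CD8 libraries, against 1.29, 4.41 and 18.6 CPM in CD4 libraries (log2 5.89, SE 0.61, adjusted p = 1.31e-05). The lowest CD8 library exceeded the highest CD4 library in each of these genes.

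Gzma and Gzmm, encoding 2 further granzymes, were higher in CD8 cells as well. Gzma had 246, 585 and 786 CPM in CD8 libraries, against 0.487, 5.79 and 69.5 CPM in CD4 libraries (log2 4.97, SE 0.96, adjusted p = 0.00376). Its highest CD4 value, and that of Ccl5, came from OT-II saline 7. Ccl5, the chemokine RANTES that memory CD8 cells release on contact with antigen, had 865, 2404 and 2710 CPM in CD8 libraries, against 10.1, 21.8 and 301 CPM in CD4 libraries (log2 4.85, SE 0.85, adjusted p = 0.00171). Without OT-II saline 1 and 7 the log2 fold change of Ccl5 was 6.52 and that of Gzma 6.46. Nkg7, a granule protein needed for degranulation, had 1705, 2137 and 2473 CPM in CD8 libraries, against 29.6, 71.7 and 389 CPM in CD4 libraries (log2 4.02). Ifng, encoding interferon gamma, overlapped between lineages, with 146, 241 and 370 CPM in CD8 libraries, against 20.9, 55.2 and 181 CPM in CD4 libraries (log2 1.91, SE 0.44, adjusted p = 0.0123).

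The 250 bases upstream of the annotated starts of Gzmb, Prf1 and Gzmk are shown because these cytotoxic genes had high fold changes and because the RUNX and T-box families, to which Runx3, Eomes and Tbx21 belong, have short known binding letters. They are read 5′ to 3′ on the gene's strand from RefSeq on GRCm38.p6. Gzmb lies at chr14:56262335-56262584 on the minus strand, Prf1 at chr10:61297586-61297835 on the plus strand and Gzmk at chr13:113180966-113181215 on the minus strand. Capitals mark the RUNX letters TGTGGT or the T-box letters GGTGTGA on either strand.
Gzmb: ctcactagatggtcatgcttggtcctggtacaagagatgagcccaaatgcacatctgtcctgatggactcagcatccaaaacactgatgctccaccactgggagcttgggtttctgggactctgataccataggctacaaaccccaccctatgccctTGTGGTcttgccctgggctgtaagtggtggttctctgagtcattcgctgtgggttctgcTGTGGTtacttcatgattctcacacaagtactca
Prf1: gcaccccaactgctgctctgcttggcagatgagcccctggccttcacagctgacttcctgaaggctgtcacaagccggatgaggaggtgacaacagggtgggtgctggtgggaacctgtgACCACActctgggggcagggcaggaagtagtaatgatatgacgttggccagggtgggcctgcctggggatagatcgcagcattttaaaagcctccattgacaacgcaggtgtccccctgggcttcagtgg
Gzmk: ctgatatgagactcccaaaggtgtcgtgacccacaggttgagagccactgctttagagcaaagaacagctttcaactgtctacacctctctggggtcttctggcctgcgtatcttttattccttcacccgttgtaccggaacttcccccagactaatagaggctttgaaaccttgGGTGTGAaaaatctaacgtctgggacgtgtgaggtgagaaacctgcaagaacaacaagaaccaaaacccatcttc

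The Gzmb stretch held the RUNX letters in 2 places, the Prf1 stretch in 1 place, read on the opposite strand, and the Gzmk stretch held the T-box letters in 1 place. Of 429 genes called higher in CD8 cells that had an upstream stretch, 22.8% held TGTGGT on either strand, against 15.6% of 372 called lower, 13.5% of 10466 tested genes and 15.9% of all 27025. GGTGTGA was in 6.76% of the higher genes, 3.23% of the lower ones, 3.62% of tested genes and 3.84% of all. TGACTCA, the letters of the AP-1 family, was in 6.29% of the higher genes, 3.23% of the lower ones, 3.97% of tested genes and 5.16% of all. A gene was counted if the upstream stretch of any of its annotated starts held the letters, so genes with more starts had more chances. The number of starts per gene was not compared between these sets. The letter strings do not contain each other, the shares are descriptions with no test, and a match is not a bound site.

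Killer lectin-like and other NK-type receptors were called higher in CD8 cells in 9 of 18 genes tested and lower in none (median log2 3.05). Memory CD8 cells also carry receptors of the killer lectin-like family. The 18 genes include Cd160, which was called, and Cd244a and Ncr1, which were not, and these are not lectin-like. Klrd1, encoding CD94, had 212, 252 and 346 CPM in CD8 libraries, against 1.46, 12.2 and 34.8 CPM in CD4 libraries (log2 4.19, SE 0.53, adjusted p = 0.000105). Klrc1, encoding NKG2A, the inhibitory partner of CD94, had 166, 363 and 510 CPM in CD8 libraries, against 2.38, 11.3 and 61.8 CPM in CD4 libraries (log2 4.31, SE 0.54, adjusted p = 8.96e-05). Of the Klrc1 stretches of 31 bases, 53.1% are shared with another gene, mostly Klrc2, so its counts are uncertain. Klrg1, a marker of terminally differentiated effector cells, had 28.4, 70.8 and 117 CPM in CD8 libraries, against 0, 0.824 and 9.90 CPM in CD4 libraries (log2 5.00, SE 1.04, adjusted p = 0.00607). Each was apart between lineages.

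Among effector and memory transcription factors 7 of 20 were called higher in CD8 cells and 5 lower, with a median log2 fold change of 0.09. Eomes had the highest fold change of the list. This T-box factor, which drives perforin expression and memory upkeep in CD8 cells, had 89.9, 125 and 140 CPM in CD8 libraries, against 2.76, 4.03 and 8.61 CPM in CD4 libraries (log2 4.77, SE 0.31, adjusted p = 1.97e-07). Tbx21, encoding the T-box factor T-bet, the shared driver of effector CD8 and T helper 1 fates, had 298, 473 and 596 CPM in CD8 libraries, against 20.6, 41.4 and 122 CPM in CD4 libraries (log2 2.83, SE 0.39, adjusted p = 0.000231). Both were apart between lineages, and T-bet transcripts reached 122 CPM in a CD4 library while Eomes stayed below 10 CPM in all 8.

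Prdm1 and Zeb2, which push CD8 cells to terminal differentiation, were also called higher, on thinner support. Prdm1 had 18.6, 27.0 and 31.4 CPM in CD8 libraries, against 0, 3.17 and 11.5 CPM in CD4 libraries (log2 3.15, SE 0.85, adjusted p = 0.0317). Leaving out any 1 of the 6 OT-I libraries, or OT-II saline 2, 4 or 5, ended the Prdm1 call (adjusted p 0.0511 to 0.0702), while without OT-II saline 1 and 7 its adjusted p was 0.00207. Zeb2 overlapped between lineages, with 30.6, 77.4 and 97.0 CPM in CD8 libraries, against 0.741, 7.85 and 35.4 CPM in CD4 libraries (log2 2.91, adjusted p = 0.0273). Leaving out OT-I saline 1, 5 or 7, or OT-II saline 1, 4 or 5, ended that call (adjusted p 0.0517 to 0.0611). On the other side, Tcf7, encoding TCF-1, the factor of stem-like memory and of follicular helper cells, had 483, 735 and 933 CPM in CD8 libraries, against 814, 1554 and 2105 CPM in CD4 libraries (log2 -1.04, SE 0.24, adjusted p = 0.0141), with overlap. Lef1, Id3, Bcl6 and Batf were the other 4 called lower.

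Chemokine receptor and egress genes were called higher in CD8 cells in 9 of 20 cases and lower in 2. Cx3cr1, the fractalkine receptor of blood-borne effector memory cells, had 75.8, 215 and 260 CPM in CD8 libraries, against 0.293, 4.51 and 19.0 CPM in CD4 libraries (log2 4.99, SE 0.78, adjusted p = 0.000621). S1pr5, a sphingosine phosphate receptor for tissue exit, had 57.5, 194 and 261 CPM in CD8 libraries, against 0.267, 4.18 and 21.8 CPM in CD4 libraries (log2 4.53, adjusted p = 0.00120). The inflammatory receptors Cxcr3 and Cxcr6 were higher by log2 2.01 and 2.48, with no overlap. Ccr10, known from cells that go to skin, had 12.4, 23.1 and 46.4 CPM in CD8 libraries, against 0, 0.700 and 2.60 CPM in CD4 libraries (log2 4.70, SE 0.76, adjusted p = 0.000841). Ccr7, the receptor for lymph node entry, ran the other way, with 155, 182 and 229 CPM in CD8 libraries, against 268, 563 and 733 CPM in CD4 libraries (log2 -1.48, SE 0.24, adjusted p = 0.000784). The highest CD8 library was below the lowest CD4 library for Ccr7.

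Of 21 integrin and adhesion genes 10 were called higher in CD8 cells and 1 lower. Itga1, an alpha chain of a collagen receptor kept by tissue memory cells, had 31.5, 47.7 and 57.0 CPM in CD8 libraries, against 0.412, 3.13 and 15.5 CPM in CD4 libraries (log2 2.73, SE 0.53). Itgae, encoding CD103, had 17.7, 28.9 and 58.9 CPM in CD8 libraries, against 1.52, 3.13 and 11.3 CPM in CD4 libraries (log2 3.58, SE 0.37, adjusted p = 1.31e-05). Itgax, encoding CD11c, a myeloid integrin that effector CD8 cells can also express, was among the 12 genes with the highest fold change, with 73.9, 119 and 147 CPM in CD8 libraries, against 0.0584, 1.27 and 3.82 CPM in CD4 libraries (log2 6.60, SE 0.52, adjusted p = 1.20e-06). Itgam, encoding CD11b, had 14.5, 32.8 and 40.5 CPM in CD8 libraries, against 0.656, 2.72 and 5.16 CPM in CD4 libraries (log2 3.53). The Itgam transcripts share 68% of their stretches of 31 bases with an overlapping gene model, Gm49368, so its counts are uncertain. CD8 libraries were all above CD4 libraries for each of these 4 integrins.

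Genes of the S100, annexin and galectin families, which rise in effector and memory T cells, were called higher in CD8 cells in 10 of 15 cases and lower in none (median log2 1.53). Lgals3, encoding galectin 3, had 101, 288 and 328 CPM in CD8 libraries, against 7.04, 15.2 and 54.3 CPM in CD4 libraries (log2 3.36, SE 0.52). S100a6 had 269, 459 and 576 CPM in CD8 libraries, against 35.2, 56.4 and 257 CPM in CD4 libraries (log2 2.32). Anxa2 had 193, 293 and 435 CPM in CD8 libraries, against 35.0, 55.8 and 105 CPM in CD4 libraries (log2 2.28, SE 0.26, adjusted p = 3.89e-05). Of 16 glycolysis and nutrient transport genes 4 were higher and none lower. The glucose transporter gene Slc2a3 had 102, 131 and 170 CPM in CD8 libraries, against 7.60, 28.8 and 66.2 CPM in CD4 libraries (log2 2.58, SE 0.36), and Slc2a1, the gene of the more widely expressed transporter, was higher by log2 1.09 (SE 0.24, adjusted p = 0.00913).

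**Figure D2:**
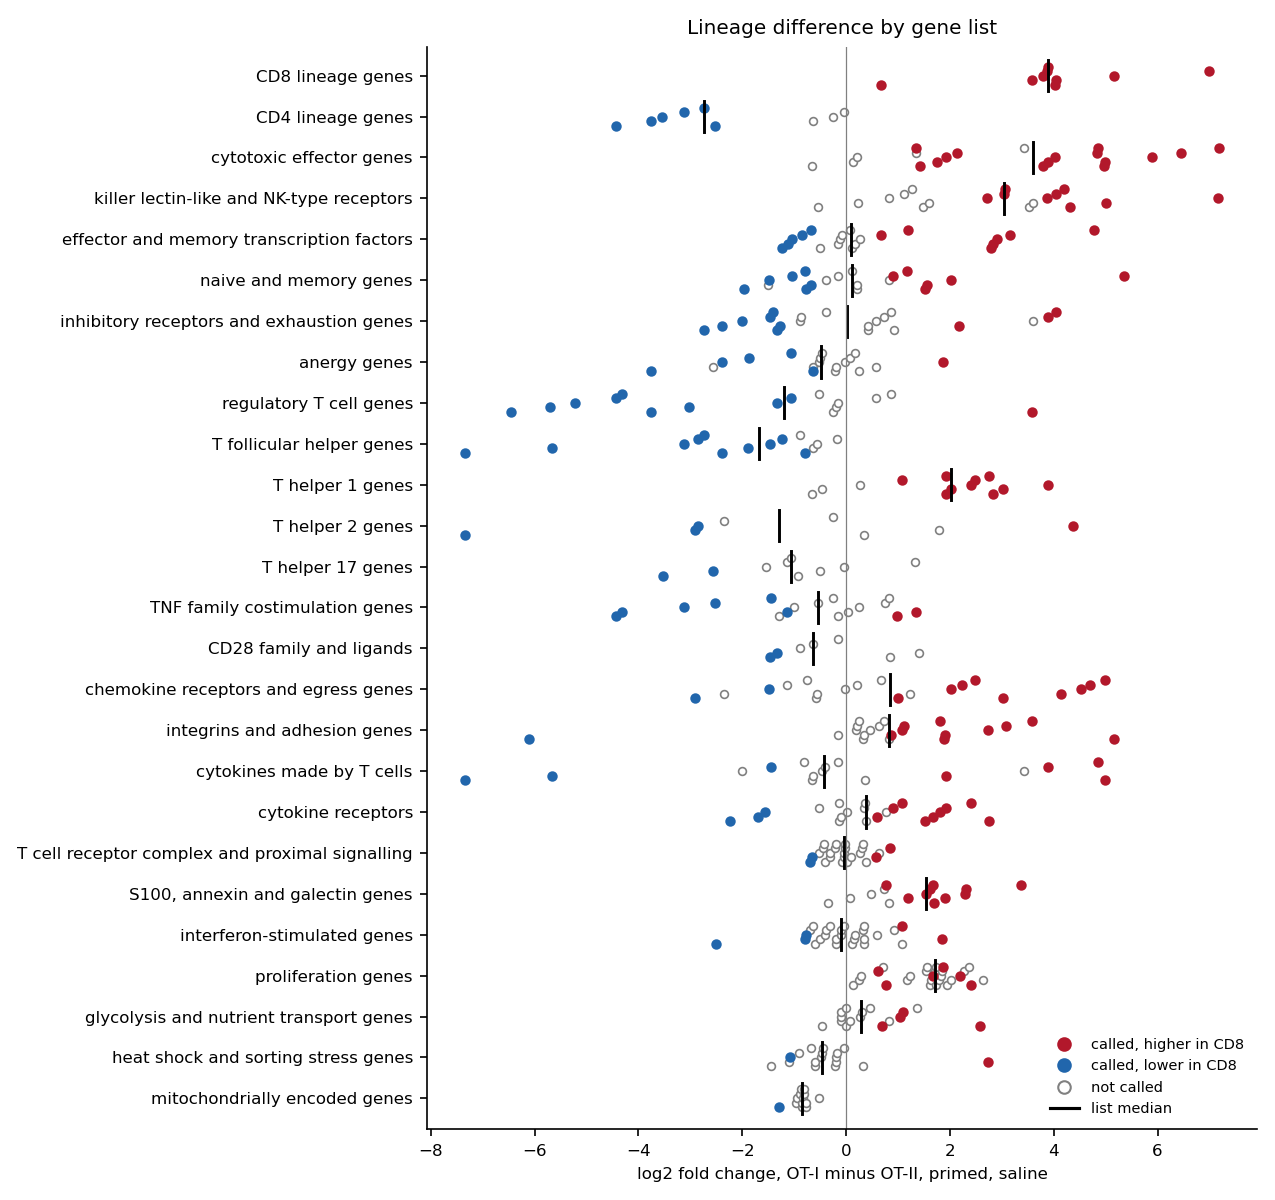
Log2 fold change, OT-I minus OT-II, of every tested gene in 26 lists in the 12 primed saline libraries whose label and transcripts match; filled points were called (red higher, blue lower in CD8 cells), open points were not, and black bars are list medians. The cytotoxic list, the list of killer lectin-like and NK-type receptors and the T helper 1 list lie to the right. T follicular helper, regulatory T cell and CD4 lineage lists lie to the left.

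Of 17 TNF family genes tested, 6 were called lower in CD8 cells, 2 higher (Tnfsf14 and Fasl) and 9 were not called (median log2 -0.54). Tnfrsf4, encoding the costimulatory receptor OX40, had 1.88, 4.59 and 10.5 CPM in CD8 libraries, against 42.6, 117 and 228 CPM in CD4 libraries (log2 -4.43, SE 0.43, adjusted p = 7.70e-06). Tnfsf8, encoding CD30 ligand, had 38.0, 43.5 and 45.2 CPM in CD8 libraries, against 140, 238 and 356 CPM in CD4 libraries (log2 -2.52, SE 0.22, adjusted p = 2.46e-06). The 7 CD8 libraries agreed closely on Tnfsf8, while the CD4 libraries ranged more than 2-fold. Tnfsf11, encoding RANKL, which acts on dendritic cells and osteoclast precursors, had 0.685, 4.01 and 7.24 CPM in CD8 libraries, against 13.8, 62.1 and 119 CPM in CD4 libraries (log2 -4.31, SE 0.67, adjusted p = 0.000613).

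T follicular helper genes, those of the CD4 cells that guide B cells in germinal centres, were called lower in CD8 cells in 10 of 14 cases and higher in none (median log2 -1.68). Il21, the main follicular helper cytokine, had 0.0269, 0.477 and 1.82 CPM in CD8 libraries, against 15.1, 26.7 and 37.0 CPM in CD4 libraries (log2 -5.67, SE 0.82, adjusted p = 0.000318). Il4 had 0, 0 and 0.0947 CPM in CD8 libraries, against 1.66, 3.69 and 7.05 CPM in CD4 libraries (log2 -7.34, SE 1.06, adjusted p = 0.000318). Il4 was thus counted in all 8 CD4 libraries and close to absent from CD8 libraries, although its CD4 level was low. Maf, a transcription factor that supports interleukin 21 and 4, had 6.02, 6.77 and 9.72 CPM in CD8 libraries, against 32.5, 57.1 and 74.0 CPM in CD4 libraries (log2 -2.85, SE 0.25, adjusted p = 2.46e-06). Cxcr5 and Icos, which also define these cells, overlapped and were not called. Cxcr5 had 34.6, 65.8 and 110 CPM in CD8 libraries, against 39.6, 116 and 180 CPM in CD4 libraries (log2 -0.56, adjusted p = 0.372). Icos had a log2 fold change of -0.64 (adjusted p = 0.164). OT-II saline 1 and 7 had the lowest CD4 values of Cxcr5 (39.6 and 66.3 CPM) and of Icos (135 and 153 CPM). Without these libraries 12 of the 14 follicular helper genes were called lower in CD8 cells and 0 higher.

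Regulatory T cell genes were called lower in CD8 cells in 9 of 16 cases and higher in 1, Itgae. Foxp3, the lineage factor of regulatory cells, had 0.0494, 0.708 and 1.87 CPM in CD8 libraries, against 6.72, 17.5 and 46.2 CPM in CD4 libraries (log2 -5.22, SE 0.72, adjusted p = 0.000207). Gpr83, a receptor used as a regulatory cell marker, had 0, 0.197 and 0.559 CPM in CD8 libraries, against 1.31, 8.84 and 24.3 CPM in CD4 libraries (log2 -5.69, SE 0.88). Ebi3, a subunit of interleukins 27 and 35, had 0.426, 0.629 and 1.60 CPM in CD8 libraries, against 3.20, 13.7 and 39.4 CPM in CD4 libraries (log2 -4.32, SE 0.62). All 3 were apart between lineages and varied several-fold among CD4 libraries. Of 18 anergy genes 5 were lower in CD8 cells and 1, Nr4a2, was higher. Egr2 and Egr3, early factors that dampen T cell responses, were lower by log2 -1.87 (SE 0.40, adjusted p = 0.00700) and -2.40 (SE 0.41, adjusted p = 0.00147). Egr2 overlapped between lineages and Egr3 did not.

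Inhibitory receptor and exhaustion genes divided between the lineages, with 3 of 20 called higher in CD8 cells, 7 lower, and a median log2 fold change of 0.01. Without OT-II saline 1 and 7, 3 were called higher and 9 lower. Btla, an inhibitory receptor that binds HVEM, had 38.0, 48.4 and 65.0 CPM in CD8 libraries, against 97.9, 127 and 161 CPM in CD4 libraries (log2 -1.47, SE 0.17, adjusted p = 3.17e-05). Cd200, which binds an inhibitory receptor on myeloid cells, had 6.50, 21.6 and 33.6 CPM in CD8 libraries, against 72.7, 92.5 and 144 CPM in CD4 libraries (log2 -2.40, SE 0.35). Tox, the nuclear factor of exhausted CD8 cells and of follicular helper cells, had 39.3, 45.9 and 71.2 CPM in CD8 libraries, against 87.9, 125 and 174 CPM in CD4 libraries (log2 -1.27, SE 0.19, adjusted p = 0.000353). The CD4 libraries thus exceeded every CD8 library in Tox, Btla and Cd200.

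Ctla4 had 26.9, 46.4 and 107 CPM in CD8 libraries, against 55.4, 148 and 204 CPM in CD4 libraries (log2 -1.33, SE 0.34, adjusted p = 0.0219), and leaving out OT-I saline 1, 2, 5 or 7 or OT-II saline 4 ended that call (adjusted p 0.0511 to 0.0593). Pdcd1, encoding PD-1, had 23.5, 37.1 and 87.0 CPM in CD8 libraries, against 40.1, 82.1 and 129 CPM in CD4 libraries and was not called (log2 -0.89, SE 0.31, adjusted p = 0.0993). Lag3 (log2 0.74, adjusted p = 0.459) and Tigit (log2 0.41, adjusted p = 0.612) were not called either. Havcr2, encoding TIM-3, was on the CD8 side, with 10.4, 21.4 and 36.6 CPM in CD8 libraries, against 0, 1.08 and 4.20 CPM in CD4 libraries (log2 3.89, SE 0.72, adjusted p = 0.00269).

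T helper 1 genes, most of which effector CD8 cells use as well, were called higher in CD8 cells in 10 of 13 cases and lower in none (median log2 2.01). The T helper 2 list had 1 higher and 3 lower of 8, and the T helper 17 list had 2 lower of 9. Gata3, the T helper 2 factor, had 97.5, 105 and 143 CPM in CD8 libraries, against 93.7, 128 and 187 CPM in CD4 libraries (log2 -0.25, adjusted p = 0.538). Ramp1, a receptor subunit for the neuropeptide CGRP, had 2.94, 3.50 and 4.53 CPM in CD8 libraries, against 32.8, 44.6 and 52.5 CPM in CD4 libraries (log2 -3.52, SE 0.23, adjusted p = 1.97e-07). Its values were tight in both lineages and lay far apart.

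Cytokine receptors were called higher in CD8 cells in 9 of 21 cases and lower in 3. Il18rap, a chain of the interleukin 18 receptor, had 205, 235 and 247 CPM in CD8 libraries, against 11.1, 20.5 and 153 CPM in CD4 libraries (log2 2.40, SE 0.51, adjusted p = 0.00674). Il10ra had 206, 248 and 291 CPM in CD8 libraries, against 41.4, 75.7 and 92.5 CPM in CD4 libraries (log2 1.81, SE 0.17). Ifngr2, the signalling chain of the interferon gamma receptor, had 6.55, 9.87 and 12.3 CPM in CD8 libraries, against 28.9, 46.6 and 54.8 CPM in CD4 libraries (log2 -2.24, SE 0.23, adjusted p = 1.11e-05). CD8 cells thus had more Ifng transcript and less Ifngr2 transcript than CD4 cells. Il2rb, shared by the interleukin 2 and 15 receptors, overlapped, with 673, 1415 and 1546 CPM in CD8 libraries, against 115, 383 and 1042 CPM in CD4 libraries (log2 1.52, adjusted p = 0.0421). Its call was lost on leaving out any of OT-I saline 2, 4, 5, 7 and 8 or OT-II saline 1, 2, 4, 5 and 7 (adjusted p 0.0515 to 0.0970). Il7r was higher by log2 0.90 (adjusted p = 0.0240), with overlap, and was not called without OT-II saline 1 and 7 (adjusted p = 0.0528) or on leaving out OT-I saline 2, 5 or 8 (adjusted p 0.0547 to 0.0653).

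Naive and memory genes went both ways, 6 of 19 higher in CD8 cells and 6 lower. Ly6c2, a surface protein of memory CD8 cells, had 1243, 1316 and 1449 CPM in CD8 libraries, against 8.93, 28.6 and 71.5 CPM in CD4 libraries (log2 5.35, SE 0.30, adjusted p = 6.23e-08). Dapl1 had 106, 172 and 257 CPM in CD8 libraries, against 20.9, 68.9 and 98.5 CPM in CD4 libraries (log2 1.56, SE 0.31). Cd44, the general marker of antigen-experienced T cells, had 142, 204 and 228 CPM in CD8 libraries, against 73.4, 186 and 305 CPM in CD4 libraries and was not called (log2 0.22, SE 0.27, adjusted p = 0.748). T cell receptor and proximal signalling genes were nearly even, with 2 of 24 higher and 2 lower (median log2 -0.04).

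Proliferation genes had a median log2 fold change of 1.70, and 6 of 27 were called higher in CD8 cells and none lower, a number that fell to 3 without OT-II saline 1 and 7. Birc5, encoding survivin, had 16.2, 77.2 and 117 CPM in CD8 libraries, against 4.24, 7.93 and 36.4 CPM in CD4 libraries (log2 2.40, SE 0.56, adjusted p = 0.0134). Kif23, a motor of cell division, was higher by log2 1.87 (SE 0.32, adjusted p = 0.00132), with no overlap. Top2a, a topoisomerase of dividing cells, was higher by log2 1.67 (adjusted p = 0.0327), and its adjusted p was 0.0788 without OT-II saline 1 and 7. Leaving out OT-I saline 2, 4 or 8 or OT-II saline 1, 4, 5 or 6 also ended the call (adjusted p 0.0634 to 0.0946). Mki67 had 44.3, 72.1 and 240 CPM in CD8 libraries, against 7.07, 28.2 and 83.1 CPM in CD4 libraries and was not called (log2 1.74, adjusted p = 0.0564). Interferon-stimulated genes showed 2 higher and 3 lower of 27 (median log2 -0.09). Iigp1, an interferon-induced GTPase, had 4.97, 10.5 and 16.9 CPM in CD8 libraries, against 45.6, 56.6 and 72.1 CPM in CD4 libraries (log2 -2.51, SE 0.30). Ifit3 was higher by log2 1.86 (SE 0.36), and 61.8% of its stretches of 31 bases are shared with another gene, mostly Ifit3b.

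Some of the genes with the highest fold change were outside the lists. Ret, encoding a receptor tyrosine kinase, led with 11.5, 19.0 and 36.3 CPM in CD8 libraries, against 0, 0.0821 and 0.728 CPM in CD4 libraries (log2 8.24, SE 0.89, adjusted p = 2.16e-05). Adgrg5, an adhesion G protein-coupled receptor, had 156, 286 and 393 CPM in CD8 libraries, against 0, 1.83 and 4.30 CPM in CD4 libraries (log2 7.10, SE 0.70). Samd3 had 125, 150 and 160 CPM in CD8 libraries, against 0.304, 3.68 and 6.47 CPM in CD4 libraries (log2 5.32, SE 0.47). At the other end Sostdc1, a secreted antagonist of BMP and WNT signals, had 0, 0.402 and 0.759 CPM in CD8 libraries, against 21.4, 66.6 and 76.1 CPM in CD4 libraries (log2 -7.74, SE 0.81, adjusted p = 1.52e-05). Angptl2, encoding a secreted angiopoietin-like protein, had 0, 0.219 and 0.944 CPM in CD8 libraries, against 3.22, 38.8 and 66.6 CPM in CD4 libraries (log2 -7.23, SE 1.05).

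Of the 12 called genes with the lowest fold change among those with at least 10 CPM in the higher group, 10 were predicted genes from a single stretch of chromosome 14, counted near 0 in CD8 cells. Gm3667 had 0, 0.0710 and 0.236 CPM in CD8 libraries, against 9.47, 16.8 and 26.9 CPM in CD4 libraries (log2 -7.56, SE 0.64, adjusted p = 2.20e-06). Gm3591 had 0, 0 and 0.236 CPM in CD8 libraries, against 5.67, 12.2 and 23.5 CPM in CD4 libraries (log2 -8.44, SE 0.99). 2610042L04Rik had 0, 0.0165 and 0.559 CPM in CD8 libraries, against 1.90, 22.0 and 35.1 CPM in CD4 libraries (log2 -8.43, SE 1.09). The stretch chr14:3000000-7600000 was chosen after these values were seen. It holds 97 of the measured genes, of which 34 passed the filter on low counts and 31 were called lower in CD8 cells, which is 6.47% of the 479 lower calls. Genes passed the filter through the CD4 libraries, where they are high, and the rest were not tested.

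Some of these genes have near-identical upstream stretches, and the most alike pair is shown to give the upper end of that likeness. Set base against base with no alignment, 670 pairs of upstream stretches from 22 of the 31 called genes had 43 to 238 identical positions of 250, with a median of 68, and 5 pairs had more than 200. The pair is Gm3667 at chr14:6889932-6890181 and Gm3752 at chr14:7488651-7488900, both on the minus strand (RefSeq, GRCm38.p6, 5′ to 3′). Capitals mark the 12 positions at which the pair differs, and the other 238 are identical.
Gm3667: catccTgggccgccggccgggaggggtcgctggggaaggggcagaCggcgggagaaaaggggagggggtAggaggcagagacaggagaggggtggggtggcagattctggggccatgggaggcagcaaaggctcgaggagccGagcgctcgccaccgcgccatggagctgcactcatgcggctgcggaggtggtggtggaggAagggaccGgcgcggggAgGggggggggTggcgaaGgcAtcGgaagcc
Gm3752: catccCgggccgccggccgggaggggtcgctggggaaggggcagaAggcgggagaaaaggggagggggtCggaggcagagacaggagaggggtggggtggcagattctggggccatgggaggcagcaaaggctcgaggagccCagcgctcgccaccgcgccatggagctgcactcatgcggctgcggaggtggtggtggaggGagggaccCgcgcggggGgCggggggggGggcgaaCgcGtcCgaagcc

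Over the 31 called genes a median of 93.1% of the stretches of 31 bases in their transcripts (64.9% to 100%) also occur in another gene. Reads therefore cannot be placed on single genes of the stretch with confidence, and the sum over the cluster is the firmer value. Some genes with shared strings, such as Gm2244, which shares most with Gm8050, are not among the summed genes. Their part in the sum was not tested. The sums were scaled by library total with no TMM factor, unlike the gene values above. After saline in primed mice the sum was 9.28, 15.4 and 18.1 CPM in CD8 libraries. It was 178, 482 and 739 CPM in CD4 libraries, with no overlap. In primed mice given OVA it was 6.85, 15.6 and 75.2 CPM in 10 CD8 libraries, against 81.9, 108 and 206 CPM in 8 CD4 libraries. After pGal-OVA it was 6.18, 14.7 and 60.6 CPM in 10 CD8 libraries, against 167, 258 and 1083 CPM in 10 CD4 libraries. Unprimed cells given saline were low in both lineages, with 2.43 to 3.75 CPM in 5 CD8 libraries, against 3.42 to 11.5 CPM in 5 CD4 libraries. In unprimed mice given pGal-OVA the 5 CD8 libraries had 3.78 to 15.8 CPM, against 36.5 to 136 CPM in 5 CD4 libraries. In unprimed mice given OVA the 5 CD8 libraries had 4.18 to 7.72 CPM, against 9.43 to 21.9 CPM in 4 CD4 libraries. All CD4 libraries thus lay above all CD8 libraries of the same set in the 3 primed sets and in the unprimed OVA and pGal-OVA sets, while the lineages overlapped in unprimed saline mice. Between saline, OVA and pGal-OVA no test was made here.

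**Figure D3:**
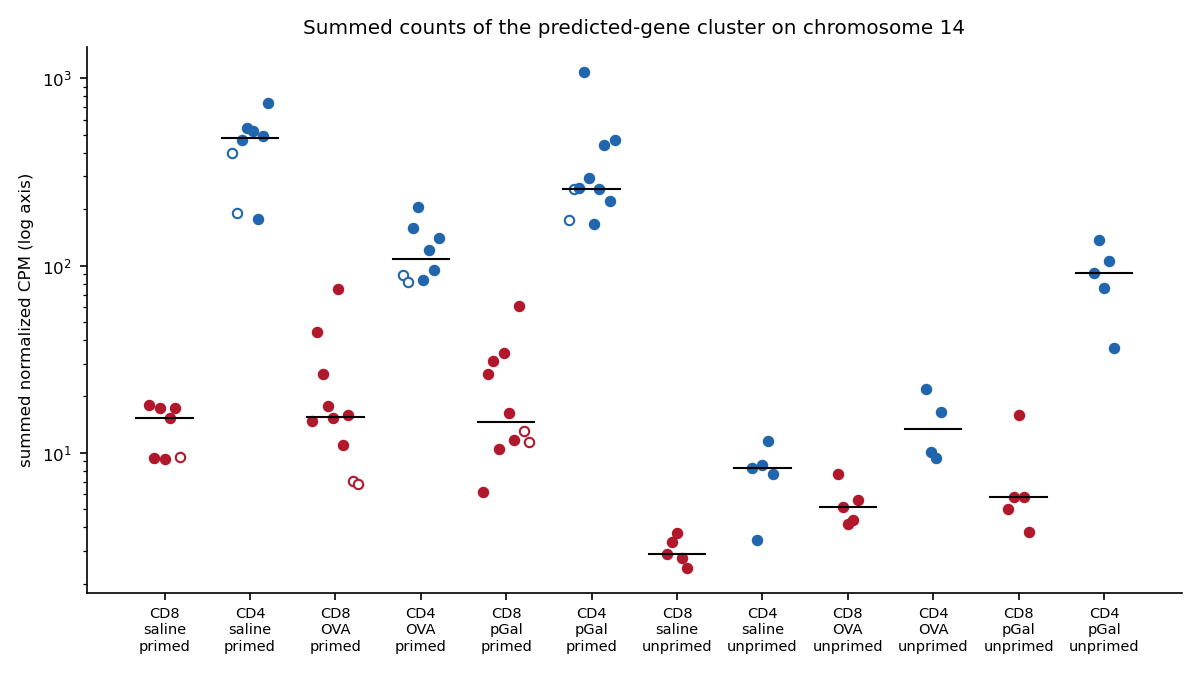
Summed CPM (log axis) of 97 genes in the chromosome 14 stretch in each library, by lineage set by transcripts, treatment and priming. Counts were scaled by library total with no TMM factor. Open points are libraries whose label names the other lineage and bars are medians. Primed saline CD4 libraries lie at 178 to 739 CPM and primed saline CD8 libraries at 9.28 to 18.1 CPM.

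The same lineage difference was measured in primed mice that had been given antigen, libraries which the saline comparison did not use. After OVA, 1918 of 13782 genes (13.9%) differed between 8 OT-I and 6 OT-II libraries, and after pGal-OVA 1910 of 13466 (14.2%) differed between 8 and 8. Of the 1011 genes called after saline, 1006 were tested after OVA, 970 of these (96.4%) had the same direction and 700 (69.6%) were called the same way, which is 36.5% of the OVA calls. After pGal-OVA 999 of 1004 (99.5%) had the same direction and 814 (81.1%) were called, 42.6% of the calls there. Gzmk differed by log2 7.98 (SE 0.75) after OVA and 5.90 (SE 0.63) after pGal-OVA, and Gzmb by 7.07 and 6.64. Cd40lg differed by log2 -5.37 (SE 0.26) after OVA and -3.57 (SE 0.23) after pGal-OVA, beside -3.12 after saline. Ctla4 showed no such gap after OVA (log2 0.04, SE 0.29, adjusted p = 0.945), while after pGal-OVA it was lower in OT-I cells (log2 -1.20, adjusted p = 0.00747). Pdcd1, which missed the threshold after saline, was called lower in OT-I cells after OVA (log2 -1.81, adjusted p = 4.73e-05) and after pGal-OVA (log2 -1.54, adjusted p = 0.000863). Cxcr5 and Icos were likewise called lower in OT-I cells in both. Whether these differences changed with treatment was not tested.

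**Figure D4:**
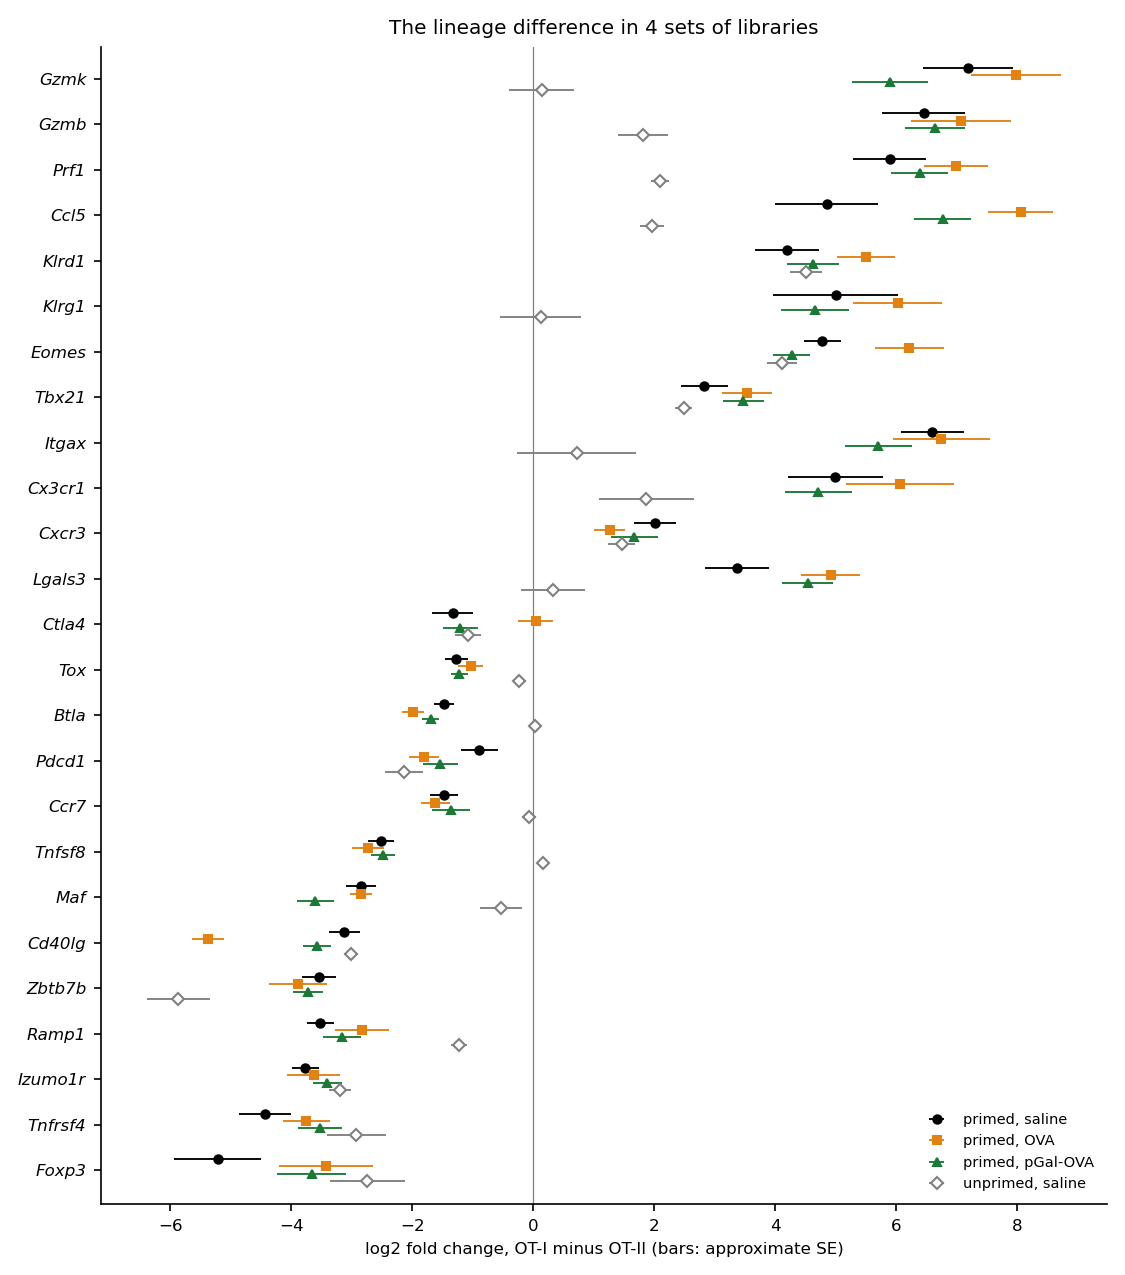
Log2 fold change, OT-I minus OT-II, with approximate SE for 25 genes in primed mice given saline, OVA or pGal-OVA and in unprimed mice given saline. The 3 primed sets lie together for most genes, and the unprimed values of Gzmk, Klrg1, Itgax, Lgals3, Tnfsf8, Btla and Ccr7 lie near 0.

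Unprimed cells showed which lineage differences were already there without immunization. Between 5 OT-I and 5 OT-II unprimed saline libraries 2777 of 13398 genes differed (20.7%), and of the 955 primed calls tested there 797 (83.5%) had the same direction, 509 (53.3%, and 18.3% of the unprimed calls) were called the same way and 28 the opposite way. The interaction, the primed lineage difference minus the unprimed lineage difference, was called for 288 of 14543 genes (1.98%), 129 positive (0.887%) and 159 negative (1.09%). It was called for 619 of 14751 genes (4.20%) without OT-II saline 1 and 7 and for 457 without OT-II saline 7 alone. Priming cannot be told apart here from mouse pooling, sort medium, freezing and sequencing, which differed between the experiments.

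Among cytotoxic genes 4 of 20 had a called positive interaction and none a negative one. Gzmk averaged 95.7 ± 32.3 CPM in primed OT-I cells and 0.649 ± 0.632 CPM in primed OT-II cells (SD, n = 6 each here and below), beside 1.25 ± 1.05 CPM in unprimed OT-I cells and 1.01 ± 0.496 CPM in unprimed OT-II cells (SD, n = 5 each here and below). Its interaction was log2 7.04 (SE 0.92, adjusted p = 0.000114), and of the 4 groups the primed OT-I cells alone were high. Gzmb averaged 418 ± 160 CPM in primed OT-I cells and 4.74 ± 4.25 CPM in primed OT-II cells, beside 8.95 ± 3.55 CPM in unprimed OT-I cells and 2.45 ± 1.30 CPM in unprimed OT-II cells (interaction log2 4.65, SE 0.79, adjusted p = 0.00158). Prf1 averaged 386 ± 138 CPM in primed OT-I cells and 6.43 ± 6.40 CPM in primed OT-II cells, and was already uneven without priming, at 161 ± 10.7 CPM in unprimed OT-I cells and 38.3 ± 10.2 CPM in unprimed OT-II cells (interaction log2 3.80, adjusted p = 0.00141). Gzma (interaction log2 4.17, adjusted p = 0.0518) and Ccl5 (2.90, adjusted p = 0.136) were not called, although without OT-II saline 1 and 7 they were, at 3.22e-05 and 3.33e-06.

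Of the integrin and adhesion genes 4 of 21 had a positive interaction and none a negative one, and of the chemokine receptor and egress genes 3 of 20 had a positive and 2 a negative one. Itgax averaged 119 ± 25.0 CPM in primed OT-I cells and 1.22 ± 0.744 CPM in primed OT-II cells, beside 4.91 ± 5.96 CPM in unprimed OT-I cells and 2.24 ± 1.83 CPM in unprimed OT-II cells (log2 5.88, SE 1.01, adjusted p = 0.00185). Ret (log2 6.86), Ccr10 (7.38), Itgam (4.22), Prdm1 (4.91), Lgals3 (3.06), Slc2a3 (1.71) and Anxa2 (1.35) were also positive. The Ret call was lost on leaving out any 1 of the 3 OT-I libraries of batch 1 of the unprimed mice (adjusted p 0.0660 to 0.0764), and the Prdm1 call on leaving out replicate 2 or 3 of them (0.0544 and 0.0558). The calls of Lgals3, Slc2a3 and Anxa2 each ended on leaving out 1 of 13 or more of the 22 libraries (highest adjusted p 0.122, 0.0893 and 0.104). Without batch 2 of the unprimed mice Prdm1, Lgals3, Slc2a3 and Anxa2 were not called (adjusted p 0.0547 to 0.112). For Prdm1 the lineages changed order: 24.1 ± 5.54 CPM in primed OT-I cells and 2.69 ± 2.68 CPM in primed OT-II cells, beside 4.35 ± 3.27 CPM in unprimed OT-I cells and 13.0 ± 2.12 CPM in unprimed OT-II cells.

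Ly6c1 and Zbtb7b had positive interactions without being higher in primed CD8 cells. Ly6c1 averaged 2.26 ± 1.14 CPM in primed OT-I cells and 6.31 ± 5.57 CPM in primed OT-II cells, beside 3.36 ± 2.28 CPM in unprimed OT-I cells and 440 ± 82.8 CPM in unprimed OT-II cells (interaction log2 5.58, SE 0.76, adjusted p = 0.000160). The high value was in unprimed OT-II cells alone, and 46.8% of the stretches of 31 bases of Ly6c1 are shared with another gene, mostly Ly6c2. Zbtb7b averaged 7.82 ± 3.38 CPM in primed OT-I cells and 91.0 ± 10.8 CPM in primed OT-II cells, beside 1.60 ± 1.43 CPM in unprimed OT-I cells and 89.7 ± 14.3 CPM in unprimed OT-II cells (interaction log2 2.36, SE 0.52, adjusted p = 0.0144). The OT-II level was thus similar in both experiments and the OT-I level was higher in primed cells. Cd8b1 had an interaction of log2 1.66 (adjusted p = 0.00549), with 18.0 ± 7.21 CPM in primed OT-II cells and 50.5 ± 6.70 CPM in unprimed OT-II cells, and was not called without batch 2 of the unprimed mice (adjusted p = 0.0944).

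Negative interactions included 3 of 14 T follicular helper genes, 2 of 17 TNF family genes and 2 of 20 inhibitory receptor genes, where 0, 1 and 0 were positive. Tnfsf8 averaged 42.1 ± 3.07 CPM in primed OT-I cells and 240 ± 82.2 CPM in primed OT-II cells, beside 70.9 ± 8.97 CPM in unprimed OT-I cells and 63.0 ± 5.97 CPM in unprimed OT-II cells (log2 -2.68, SE 0.25, adjusted p = 2.09e-06). Btla averaged 48.9 ± 9.80 CPM in primed OT-I cells and 135 ± 17.8 CPM in primed OT-II cells, beside 72.0 ± 7.27 CPM in unprimed OT-I cells and 70.7 ± 7.72 CPM in unprimed OT-II cells (log2 -1.49, SE 0.19, adjusted p = 0.000111). Both genes were even between unprimed lineages and uneven between primed ones. Maf (log2 -2.30), Ebi3 (-3.89), Egr3 (-2.49), Tox (-1.04), Ccr7 (-1.41) and Ifngr2 (-1.27) were called in the same direction. Without batch 2 of the unprimed mice Ebi3, Egr3, Tox and Ccr7 were not called (adjusted p 0.0547 to 0.199), and the Ebi3 call ended on leaving out any of 11 of the 22 libraries (highest adjusted p 0.116). Ramp1 averaged 3.61 ± 0.595 CPM in primed OT-I cells and 41.2 ± 7.82 CPM in primed OT-II cells, beside 62.5 ± 13.0 CPM in unprimed OT-I cells and 146 ± 31.2 CPM in unprimed OT-II cells (log2 -2.29, SE 0.23, adjusted p = 3.90e-06). Cxcr6, the receptor of resident memory cells, averaged 506 ± 115 CPM in primed OT-I cells and 90.6 ± 74.3 CPM in primed OT-II cells, beside 295 ± 50.7 CPM in unprimed OT-I cells and 9.23 ± 1.86 CPM in unprimed OT-II cells (log2 -2.52, SE 0.49, adjusted p = 0.00554). Among genes with at least 10 CPM in the higher group, 3 of the 6 most negative called interactions were chromosome 14 copies (Gm3252, Gm3591 and 2610042L04Rik), whose fitted values rest on counts near 0, and the others were Scin, Npas2 and Angptl2. Scin, an actin-severing protein, averaged 0.0983 ± 0.0639 CPM in primed OT-I cells and 20.7 ± 21.8 CPM in primed OT-II cells, beside 0.358 ± 0.278 CPM in unprimed OT-I cells and 0.427 ± 0.396 CPM in unprimed OT-II cells (log2 -7.58, adjusted p = 0.00563). With replicate numbers fitted as blocks the Scin call ended (log2 -5.71, adjusted p = 0.112). The Npas2 call ended on leaving out any of 11 of the 22 libraries (highest adjusted p 0.135). Leaving out replicate 2 of the batch 1 OT-I unprimed libraries ended the Gm3252 call (adjusted p = 0.0526). Leaving out replicate 1 of either unprimed batch of OT-I ended that of 2610042L04Rik (0.0560 and 0.0582). Without batch 2 of the unprimed mice, 4 of these genes were not called either. The adjusted p was then 0.0594 for Gm3252, 0.0649 for Npas2, 0.0849 for 2610042L04Rik and 0.136 for Angptl2.

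**Figure D5:**
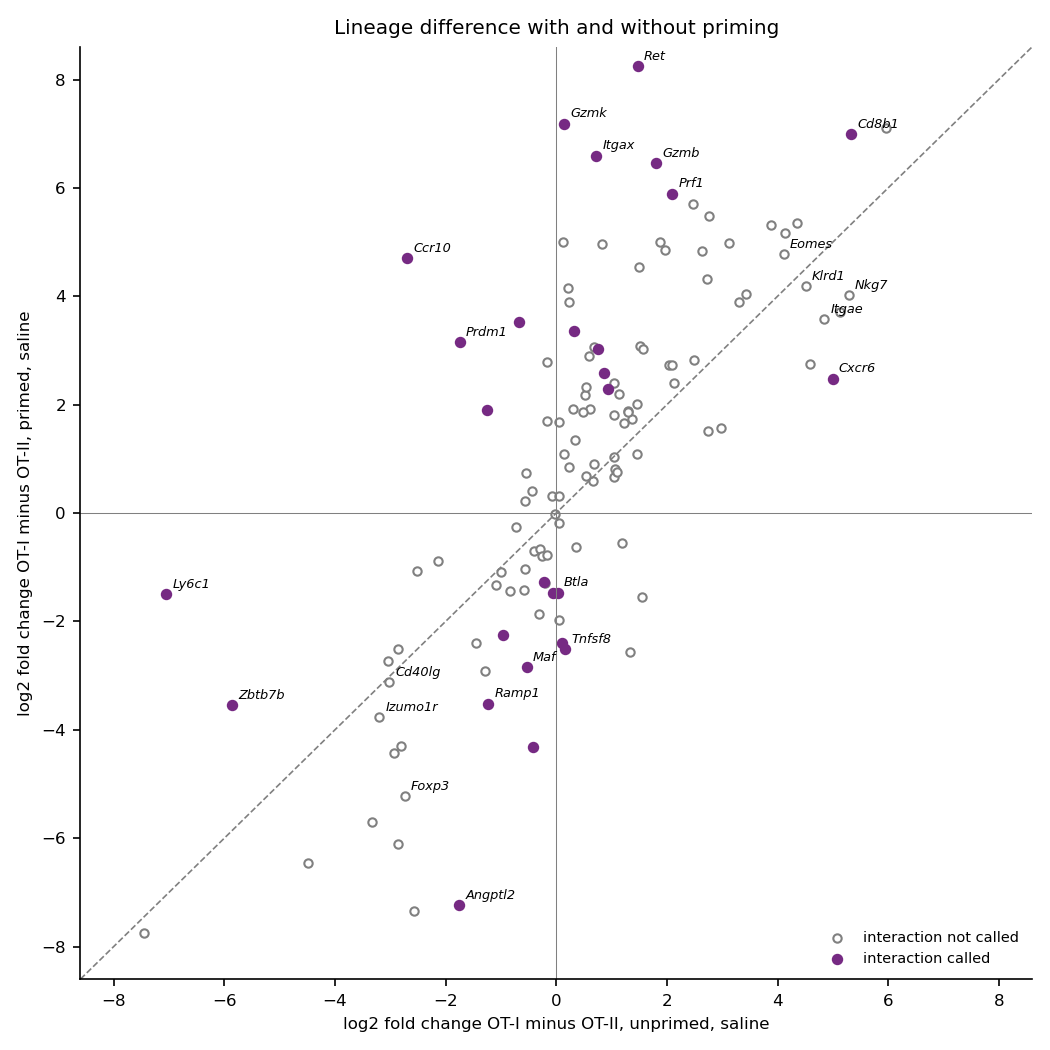
Log2 fold change, OT-I minus OT-II, in primed saline libraries (vertical) against unprimed saline libraries (horizontal) for the 128 named genes tested in both; filled points had a called interaction (27) and the dashed line marks equal differences. Gzmk, Itgax, Ret, Gzmb and Prf1 lie above the line, Tnfsf8, Btla, Maf and Angptl2 below it, and Klrd1, Cd40lg and Izumo1r near it.

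Many lineage genes did not have a called interaction. Eomes differed by log2 4.77 in primed and 4.11 in unprimed cells (interaction 0.66, SE 0.37, adjusted p = 0.530), and Klrd1 by 4.19 and 4.51 (interaction -0.31, SE 0.63, adjusted p = 0.932). Tbx21 differed by 2.83 and 2.49 (interaction 0.34, SE 0.46, adjusted p = 0.880), although its level in OT-I cells was 429 ± 115 CPM with priming and 52.3 ± 10.7 CPM without. Cd40lg had an interaction of log2 -0.10 (SE 0.30, adjusted p = 0.964). A p above the threshold does not show that these differences were equal.

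The 3 libraries that went against their labels were set against the 1011 called genes. The library labelled OT-II saline 3 was nearer to the OT-I than to the OT-II mean for 92.7% of them. The libraries labelled OT-I saline 3 and 6 were nearer to the OT-II mean for 81.7% and 88% of them. The 12 libraries that chose these genes were nearer to their own mean for 81.9% to 97.6%, the lowest being OT-II saline 7.

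Markers of other cells were present in both lineages. The summed B cell list (13 genes) was 425, 886 and 1452 CPM in CD8 libraries, against 620, 1419 and 2261 CPM in CD4 libraries, and Cd79a, a chain of the B cell receptor complex, had 18.9, 34.5 and 76.7 CPM in CD8 libraries, against 29.4, 78.5 and 123 CPM in CD4 libraries. The myeloid and dendritic list (14 genes) summed to 57.2, 114 and 262 CPM in CD8 libraries, against 50.0, 169 and 335 CPM in CD4 libraries. Both ranges overlapped, 1 of 13 B cell markers and 2 of 13 myeloid markers were called higher in CD8 cells, and none was lower. The erythroid and platelet list (10 genes) summed to 70.2, 86.5 and 715 CPM in CD8 libraries, against 28.4, 381 and 651 CPM in CD4 libraries, with none called. The NK list (10 genes) summed to 400, 831 and 1005 CPM in CD8 libraries, against 18.2, 32.9 and 123 CPM in CD4 libraries, with 4 of 9 called higher (Gzma, Eomes, Klre1 and Klrb1c), of which CD8 cells are known to express Gzma and Eomes. Without Gzma it summed to 154, 202 and 289 CPM in CD8 libraries, against 16.8, 27.2 and 53.8 CPM in CD4 libraries. Ncr1, the defining NK gene, was at 0.417, 1.48 and 3.38 CPM in CD8 libraries, against 0, 0.607 and 1.54 CPM in CD4 libraries. The gamma-delta and innate T cell list (7 genes) summed to 57.2, 66.5 and 108 CPM in CD8 libraries, against 18.6, 27.2 and 61.6 CPM in CD4 libraries, and without Cd163l1, the 1 gene called, to 19.4, 27.1 and 34.7 CPM in CD8 libraries, against 17.2, 24.9 and 61.6 CPM in CD4 libraries. The stromal and endothelial list (10 genes) summed to 44.9, 63.1 and 83.5 CPM in CD8 libraries, against 104, 160 and 199 CPM in CD4 libraries. Nearly all of that sum was Pecam1, which T cells express too (log2 -1.43, adjusted p = 0.000188), and without it the sums were at most 17.4 CPM in CD8 libraries and 11.6 CPM in CD4 libraries. Over the 12 tested libraries the summed level differed between lineages by a two-sided exact permutation test for the NK and the stromal list (p = 0.00216 each, the smallest that 6 against 6 allows, 0.00649 adjusted over 6 lists) and for the gamma-delta list (exact p = 0.00649, adjusted 0.0130), while the exact p of the other 3 was 0.329 or above. With its most abundant gene left out, the NK list kept an exact p of 0.00216. The exact p was then 0.987 for the gamma-delta list and 0.887 for the stromal list. The NK sum without Gzma still held Eomes, at 89.9, 125 and 140 CPM in CD8 libraries, against 2.76, 4.03 and 8.61 CPM in CD4 libraries. The NK sum without both genes was not tested. The part of these other cells in the lineage differences was not tested.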

How the data were processed

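The authors deposited estimated counts for protein-coding genes. The submitters' processing notes name bcl2fastq, kallisto 0.46.1 and the GRCm38 build, and the summing of transcripts to genes is not described there. The estimated counts were rounded to whole numbers, and 21823 genes shared by the tables were used, of which 21806 had coordinates in GENCODE M21. No column of the tables was left unmapped.

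Lineage was set by Cd8a and Cd4 counts, and tests used the 12 primed saline libraries in which label and transcripts matched. Low counts were removed with filterByExpr, libraries were scaled by TMM, and edgeR 4.0.16 (R 4.3.3) gave the robust quasi-likelihood tests. Cd8a and Cd4 were left out of the tests. A gene was called at an adjusted p under 0.05. The SE is the log2 fold change divided by the square root of the F statistic and is approximate. The interaction fit joined 12 primed and 10 unprimed libraries with a term for the second unprimed batch. Alternatives were RLE factors, DESeq2 1.42.0, limma 3.58.1 voom, no filter, a replicate block, the 15 libraries by transcripts or as labelled, batch 1 alone and each library left out; leaving out OT-II saline 1 and 7 together, and a 2-fold minimum, were added after seeing the data. The fits were tested on simulated data.

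The members, gene lists (32, with 424 genes) and tests were chosen with earlier results of these data known. Named genes were, among called genes with at least 10 CPM in the higher group, the 12 at each end of the fold changes, a panel of 33 genes, up to 5 called members of each list, and 6 genes at each end of the interaction, and the text gives a part of them, since some genes are not reported here. Each primed library is 1 mouse, so spread between libraries holds spread between mice. Spread from sorting and library making cannot be told apart from it. Same-numbered OT-I and OT-II libraries are not stated to share a mouse, and the main tests did not pair them. With no molecular identifiers, amplified reads are not separate molecules, and precision was taken from the spread between libraries. Upstream sequences are RefSeq, GRCm38.p6. Shared stretches were counted over GENCODE M21 transcripts as strings of 31 bases.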

Additional observations from a re-analysis of the deposited data

Results flagged for a closer look

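Groups of 7 or 8 libraries (the CD8 or the CD4 libraries after saline, gene by gene) were looked at, 184 in all. In 28 the highest or lowest library was far from the nearest other one relative to the whole range. A chance rate of about 1 in 20 groups would need independent, normally distributed values. Here the genes share libraries and some values lie near 0, so 28 of 184 cannot be set against that rate. Of the 28 flags, 12 were values of OT-II saline 7 among the 8 CD4 libraries, all of them high. Ccl5 was at 301 CPM against a CD4 median of 21.8 CPM and Gzma at 69.5 CPM against 5.79 CPM. Ccl4 was at 41.5 CPM against 2.05 CPM, Ifng at 181 CPM against 55.2 CPM and S100a6 at 257 CPM against 56.4 CPM. The others were Xcl1 at 10.0 CPM, Gzmm at 8.30 CPM, Zeb2 at 35.4 CPM, S1pr5 at 21.8 CPM, Lgals3 at 54.3 CPM, Il4 at 7.05 CPM and Gm3252 at 35.4 CPM. OT-II saline 7 had the lowest Cd8a level of the CD4 libraries (0.152 CPM) and the fewest genes detected (14108). Its mitochondrial share was 2.05% after TMM scaling. The part of these traits in the flagged values was not tested.

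OT-II saline 1 was high among CD4 libraries in Cd8a (8.10 CPM) and Ly6c1 (16.6 CPM). OT-II saline 6 was high in Prf1 (18.6 CPM) and Crtam (10.7 CPM), and the library labelled OT-I saline 3, which held CD4 transcripts, in Itgae (11.3 CPM) and Ret (0.728 CPM). Among CD8 libraries, OT-I saline 4 was high in Ctla4 (107 CPM against a CD8 median of 46.4 CPM), Pdcd1 (87.0 CPM against 37.1 CPM) and Lag3 (25.9 CPM against 9.83 CPM) and low in Il7r (408 CPM against 725 CPM). It was also the highest in Angptl2 (0.944 CPM) and Gm3591 (0.236 CPM). OT-I saline 8 was highest in Ly6c1 (4.42 CPM), OT-I saline 2 in Il21 (1.82 CPM), OT-I saline 1 in Il4 (0.0947 CPM) and OT-I saline 5 in Egr3 (5.10 CPM).

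The lineage difference itself differed between primed and unprimed cells, by the edgeR interaction test at an adjusted p under 0.05, in 30 of the genes named in the text. Positive interactions (log2) were Ccr10 7.38, Gzmk 7.04, Ret 6.86, Itgax 5.88, Ly6c1 5.58, Prdm1 4.91, Gzmb 4.65, Itgam 4.22, Prf1 3.80, Lgals3 3.06, Zbtb7b 2.36, Slc2a3 1.71, Cd8b1 1.66 and Anxa2 1.35. Negative ones were Gm3252 -13.00, Gm3591 -10.90, 2610042L04Rik -9.99, Scin -7.58, Npas2 -7.58, Angptl2 -5.48, Ebi3 -3.89, Tnfsf8 -2.68, Cxcr6 -2.52, Egr3 -2.49, Maf -2.30, Ramp1 -2.29, Btla -1.49, Ccr7 -1.41, Ifngr2 -1.27 and Tox -1.04. Experiment and priming cannot be told apart in these values.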

How the results depend on the processing

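Among the named genes no call changed direction in an alternative run that tested the gene. All 1011 saline calls kept their direction with the 15 libraries placed by transcripts and without OT-II saline 1 and 7. In the other alternative runs direction was compared for named genes only. Fitting the 15 libraries as labelled called 0 genes by edgeR (1010 at an unadjusted p under 0.05) and DESeq2 on the 12 called 1585, against 1011 by edgeR, and leaving out each library in turn gave 791 to 1193. The other alternatives for the saline comparison (RLE factors, voom, no filter, transcripts over 15 libraries, without OT-II saline 1 and 7, at least 2-fold) gave counts within 1.5 times of 1011. The interaction, 288 genes, had 616 by DESeq2, 135 with unprimed batch 1 alone, 619 without OT-II saline 1 and 7, and 199 to 457 on leaving out each library, the highest without OT-II saline 7. In libraries given OVA and pGal-OVA, DESeq2 called 2491 and 2489 genes.

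Replicate numbers are shared by 5 pairs of OT-I and OT-II libraries, and 3 of the 5 correlated best with their own number. All 5 correlations of deviations were positive (0.0399 to 0.390), against a mean of -0.0351 between other numbers. Libraries that went against their labels had the same numbers in OT-I and OT-II (saline 3, OVA 6 and 8, pGal 5 and 7), except OT-I saline 6. Same-numbered libraries may thus share a mouse, which the labels do not state, and the main tests treated them as independent. With the replicate block the saline comparison called 1099 genes, the interaction 496, the OVA libraries 3090 and the pGal-OVA libraries 2784. Among named genes the block ended 11 saline calls and added 1, and it ended 3 interaction calls. Among those ended were the saline calls of Prdm1 and Top2a (adjusted p 0.0621 and 0.0535) and the interaction calls of Scin and 2610042L04Rik (adjusted p 0.112 and 0.0595).

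Of 144 named genes, the 15-library fit by transcripts kept 140 on the same side of the threshold, no filter 137, voom 137, and leaving out OT-II saline 1 and 7 135. Batch 1 alone ended 13 of 31 named interaction calls. Low counts limit genes near 0 in CD8 cells, such as Il4 and the chromosome 14 copies, whose fitted folds depend on a few reads. The cause of these shifts was not tested.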
